A study of Mus musculus with 3 samples.

Results

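Cd4, Cd8a, Cd8b1, Cd27, Cd28, Cd2, Cd6 and Ctla4 encode the coreceptors and a set of costimulatory or adhesion receptors of T cells, and their mRNA was followed here in mouse thymocytes by droplet single-cell RNA sequencing. The 8 genes were chosen by name among the 27734 genes listed in all 3 sequencing runs. No threshold on a measured value set the choice, but earlier results of these data were known when it was made. Thymocytes came from C57BL/6 mice, labelled as 6 weeks old, with 4 thymi pooled per run, and CD4+ and CD8+ cells were depleted with magnetic beads before sorting. Run 1 held total double negative (DN) cells, which bear neither CD4 nor CD8 on their surface, together with TCRγδ+ cells. Run 2 held DN1 and DN2 cells, the DN cells with high CD44. Run 3 held DN1, DN2, DN3 and TCRγδ+ cells, mixed after sorting. The sorting gate also removed cells with B220, CD11b, CD11c, NK1.1 or TCRβ, and in run 2 those with TCRγδ. Each mixture was sorted once, so levels were compared between classes of cells within runs, and no test was made between runs.

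CD4 and CD8 bind the MHC molecule that a T cell receptor recognises and bring the kinase Lck to it, and the CD8 coreceptor of conventional T cells is a dimer of the chains encoded by Cd8a and Cd8b1. CD28 adds an activating signal when it binds CD80 or CD86, and CTLA-4 binds the same ligands and restrains activation. CD27 is a TNF receptor family member that binds CD70, CD2 is an adhesion receptor that binds CD48 in the mouse, and CD6 is a scavenger receptor family member that binds ALCAM. DN thymocytes gain CD25 (Il2ra) as they enter the DN2 stage, express the pre-T cell receptor alpha chain (Ptcra) as they commit to the T lineage, and proliferate and lose CD25 after a functional TCRβ chain is made, before CD8 and CD4 appear.

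On the GRCm38 build the genes lie in 3 neighbourhoods and 2 single sites. Cd28 (chr1:60716800-60773359, plus strand) and Ctla4 (chr1:60887000-60915832, plus strand) are 113.6 kb apart by their GENCODE gene spans. Cd8b1 (chr6:71322788-71337494, plus strand) and Cd8a (chr6:71373427-71379173, plus strand) are 35.9 kb apart. Cd4 (chr6:124864692-124888221, minus strand) and Cd27 (chr6:125232622-125237010, minus strand) share the far part of that chromosome. Cd2 (chr3:101275899-101287939, minus strand) and Cd6 (chr19:10789341-10830058, minus strand) stand alone.

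The receptor pair with opposite actions, CD28 and CTLA-4, holds the same 6-residue loop that contacts CD80 and CD86. The coding bases of that loop are shown because the mRNAs of the pair moved in opposite directions between several classes of cells below. Both stretches lie in exon 2 of the 4-exon GENCODE transcript, at chr1:60763260-60763307 for Cd28 and chr1:60912698-60912745 for Ctla4 on the plus strand, and capitals mark the codons of the loop, with 15 coding bases on each side.
Cd28: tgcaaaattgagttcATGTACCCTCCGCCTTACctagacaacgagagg
Ctla4: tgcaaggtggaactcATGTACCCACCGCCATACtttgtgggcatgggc
The capitals share 16 of 18 bases, and the whole stretch shares 31 of 48 bases.

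RefSeq promoter windows (build GRCm38.p6) were matched for 3 of the 8 genes, and these 3 genes differed in how they moved with cell cycling within Il2ra+ cells. The 250 bases before the RefSeq start are shown for Cd8a (chr6:71373177-71373426, plus strand), which was higher in cycling Il2ra+ cells of run 1, and for Cd27 (chr6:125237028-125237277, minus strand) and Ctla4 (chr1:60908775-60909024, plus strand), which were lower in cycling Il2ra+ cells. The Ctla4 window lies within the GENCODE span given above, which begins further upstream. Over all cells of a run, Cd8a was higher in cycling cells in run 1 only, and Ctla4 was at 20.01 CPM in cycling and 15.5 CPM in non-cycling cells of run 2. Capitals mark E-box letters (CANNTG, which read the same on both strands).
Cd8a: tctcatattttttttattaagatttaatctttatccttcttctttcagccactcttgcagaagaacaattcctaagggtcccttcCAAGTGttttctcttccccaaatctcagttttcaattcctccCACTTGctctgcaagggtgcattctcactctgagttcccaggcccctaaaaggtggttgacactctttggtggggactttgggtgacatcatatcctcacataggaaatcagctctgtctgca
Cd27: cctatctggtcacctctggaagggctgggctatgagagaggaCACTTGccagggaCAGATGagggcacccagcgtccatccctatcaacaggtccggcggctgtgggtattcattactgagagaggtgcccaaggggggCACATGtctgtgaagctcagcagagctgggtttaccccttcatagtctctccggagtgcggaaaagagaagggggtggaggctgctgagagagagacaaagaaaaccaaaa
Ctla4: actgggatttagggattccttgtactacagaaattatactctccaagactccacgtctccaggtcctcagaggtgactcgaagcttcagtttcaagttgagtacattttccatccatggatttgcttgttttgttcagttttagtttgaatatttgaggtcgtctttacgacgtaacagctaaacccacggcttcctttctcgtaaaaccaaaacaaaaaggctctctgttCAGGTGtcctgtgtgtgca
Cd8a held 2 E-box matches, Cd27 held 3 and Ctla4 held 1, against 66.2% of all 32851 promoter windows of the same length with at least 1. The letters TGTGGT, known as a RUNX motif and held on either strand by 14.05% of all windows, were absent from all 3. So were the letters AGATAA, known for binding by zinc finger factors of the Gata3 family and held by 9.99%.

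Of 23283 deposited cells, 21879 had 500 to 5000 genes and at most 7% mitochondrial counts, with 5516 in run 1, 8852 in run 2 and 7511 in run 3. The files held 39947415, 52797915 and 98533329 unique molecular identifiers (UMIs, each standing for 1 captured mRNA molecule) in runs 1, 2 and 3, and the kept cells had medians of 5989.5, 4844 and 8507. Levels are counts-per-million (CPM), the UMIs of a gene scaled by all UMIs of the summed cells of a class, with exact Poisson 95% intervals that cover counting error only. Runs 1 and 2 shared 72 cell barcodes, runs 1 and 3 shared 3 and runs 2 and 3 shared 0. The 5 T-lineage markers (Cd3e, Cd3d, Cd3g, Lck and Thy1) were detected in all 10 classes defined next in every run, at a summed 2331 to 8262 CPM. Cells with UMIs of at least 2 B cell marker genes were set aside. Cells with 1 stayed in, and Cd79a, a chain of the B cell receptor complex, was at 79.3 CPM in the Trdc-low Trac- class of run 3, 21.3 CPM in its Il2ra+ Ptcra- non-cycling class and 17.6 CPM in the Trdc-low Trac- class of run 2.

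Cells were called positive for Il2ra, Ptcra or Trac (the T cell receptor alpha constant gene) with at least 1 UMI. Cells without a UMI were called negative, and whether they lacked the mRNA or it was missed cannot be told apart. They were called Trdc-high with at least 3 UMIs of Trdc (the delta constant gene) that made up at least 1 in 1000 UMIs. They were called cycling when their S or G2/M gene score placed them in those phases. Cycling cells made up 71.9% of run 1, 40.3% of run 2 and 37.1% of run 3, and 68.5%, 43.3% and 48.3% after each cell was thinned to 2000 UMIs. Scores within 0.05 of the limit were held by 614, 946 and 1457 cells. Combining the gates gave 10 classes with 22 to 2263 cells per run. The smallest was the Trac+ class of run 1, at 22 cells. The other Il2ra- Ptcra- non-cycling classes of run 1 had 188 and 185 cells.

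**Figure D1:**
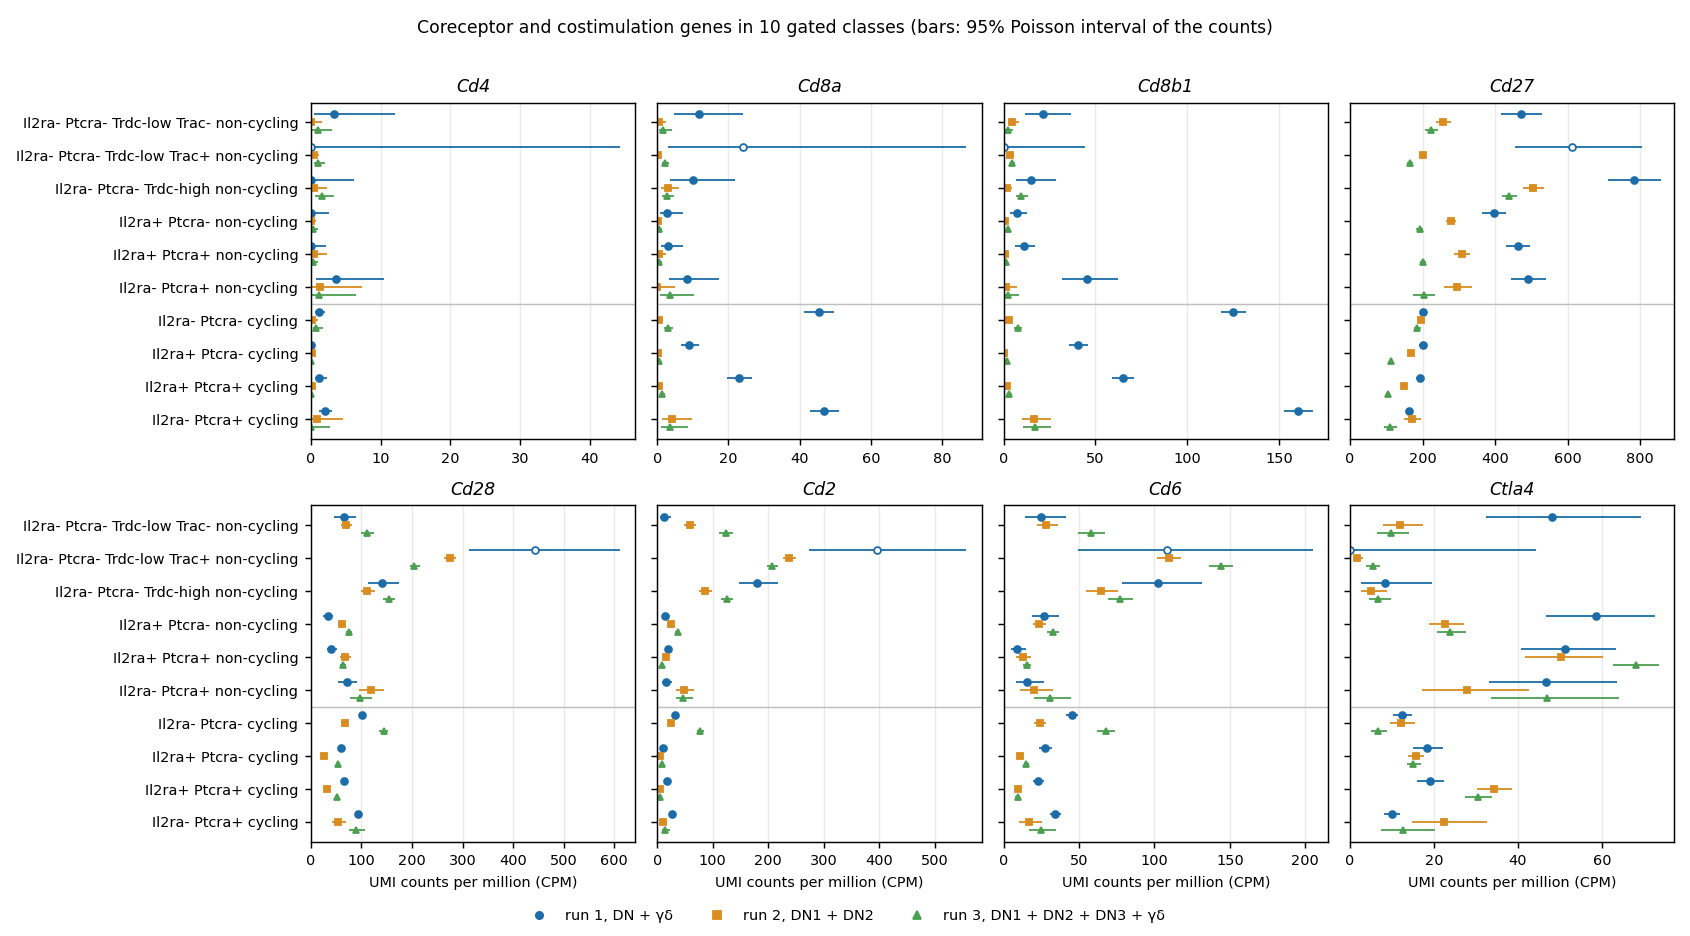
Level of each gene (x axis, CPM, linear from 0, scaled per panel) in 10 gated classes (y axis) of run 1 (blue circles), run 2 (orange squares) and run 3 (green triangles), with exact Poisson 95% intervals as bars and the 22-cell class of run 1 as an open symbol. Cd8b1 reached 161 CPM in the Il2ra- Ptcra+ cycling class of run 1 and 16.6 and 17.1 CPM in runs 2 and 3, and Cd27 was highest in the Trdc-high class of each run among classes of at least 50 cells.

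Over all kept cells, Cd27 had the highest level of the 8 genes, at 227 CPM in run 1, 211 CPM in run 2 and 165 CPM in run 3. Cd28 followed in runs 2 and 3, at 79.1 and 89.2 CPM. In run 1, Cd28 stood at 81.3 CPM and Cd8b1 at 96.1 CPM. Cd2, Cd6 and Ctla4 lay between 18.2 and 55.6 CPM in every run. The library captured the 3' ends of mRNAs, so these counts do not scale with gene length. Cd4 was at the bottom of the order in each run, with 47, 11 and 34 UMIs in all, or 1.19, 0.21 and 0.437 CPM.

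No background level for free RNA from broken cells is given here, so a level of a few CPM is not read as expression by the cells of a class.

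In the 3 runs together, 7 pairs of classes were compared on summed counts with edgeR's quasi-likelihood test, with the run as a block. The Trdc and Trac gates were set only within Il2ra- Ptcra- non-cycling cells. The Il2ra+ Ptcra- non-cycling class was thus not gated on Trdc or Trac, and the Trdc-high class not on Trac. Both were set against the Trdc-low Trac- class, so these pairs differ in more than 1 gate. The other pairs differ in 1 gate. Cd4 was below the filter on low counts in all 7 comparisons. Cd8a passed it only in the 2 comparisons within Ptcra+ cells that include a cycling class, and Cd8b1 in all but the comparison of Ptcra+ with Ptcra- non-cycling cells. Both were high in classes of run 1, which counted toward passing. Where Cd8b1 was called, it also passed the filter in the fit without run 1. The values of Cd8a are therefore given without a test, and the tests of Cd8b1 are given with that limit. Where Cd8b1 was called, its fit without run 1 is given as well. The counts that follow are over the 5 genes that passed in all 7 comparisons (Cd27, Cd28, Cd2, Cd6 and Ctla4). Every pair shares a class with at least 1 other pair.

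**Figure D2:**
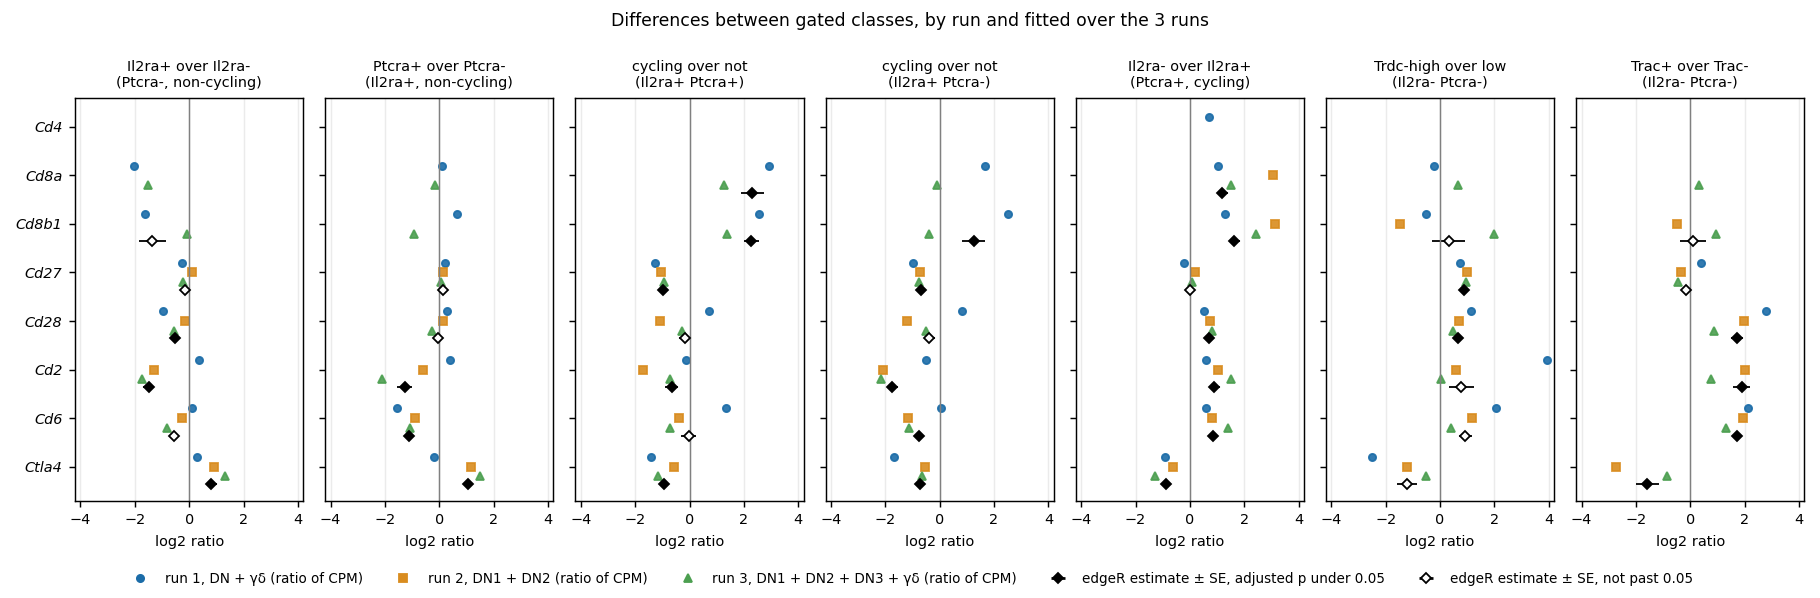
Log2 ratio of CPM between the paired classes of each comparison (x axis, 0 means no difference) for each gene (y axis), per run (blue circles, orange squares and green triangles, drawn where both classes hold over 3 UMIs) and as the edgeR estimate over the runs ± SE (black diamonds, filled where the adjusted p passed 0.05). The diamonds of Cd8a and Cd8b1 are for genes whose high counts in run 1 counted toward passing the filter. In the comparison of Il2ra- with Il2ra+ cells among Ptcra+ cycling cells, all 3 runs lie on the same side of 0 for Cd8b1, Cd28, Cd2, Cd6 and Ctla4, with Ctla4 on the side opposite to the others.

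Cd4 was near the counting limit in every class, in cells sorted without CD4 protein. It did not exceed 3.58 CPM in any class of at least 50 cells in any run. After each cell was thinned to 2000 UMIs, 0.29% of the cells of run 1, 0.0678% of run 2 and 0.0804% of run 3 had a Cd4 UMI. Without thinning these shares were 0.798%, 0.124% and 0.439%. The intervals of the 2 highest classes overlapped in each run, so Cd4 gave no order of classes.

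The genes of the CD8 chains, Cd8a and Cd8b1, were highest in run 1 and in its cycling cells. Run 1 was the only sort that took in total DN cells, the DN4 gate (CD25- CD44-) included. Cd8b1 in run 1 stood at 161 CPM in Il2ra- Ptcra+ cycling cells, 125 CPM in Il2ra- Ptcra- cycling cells, 64.9 CPM in Il2ra+ Ptcra+ cycling cells and 40.7 CPM in Il2ra+ Ptcra- cycling cells. The non-cycling counterparts of the Il2ra+ classes were at 11.0 and 7.07 CPM. Cd8a in run 1 kept the same division at lower levels, with 46.8 and 45.4 CPM in the Il2ra- cycling classes, whose intervals overlapped, and 22.9 and 8.94 CPM in the Il2ra+ cycling classes. In runs 2 and 3, Cd8b1 was also highest in Il2ra- Ptcra+ cycling cells, at 16.6 CPM (20 UMIs in 142 cells) and 17.1 CPM (23 UMIs in 80 cells), and its interval stood clear of the next class in run 2 and overlapped it in run 3. No other class of runs 2 and 3 exceeded 9.7 CPM.

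Among cells thinned to 2000 UMIs, 22.8% of the 1055 Il2ra- Ptcra+ cycling cells of run 1 had a Cd8b1 UMI (Clopper-Pearson 95% interval 20.3% to 25.5%), against 54.6% with all UMIs. The share was 6.37% (4.76% to 8.31%) in Il2ra+ Ptcra+ cycling cells and 1.15% (0.375% to 2.67%) in Il2ra+ Ptcra- non-cycling cells, which had 24.5% and 1.84% with all UMIs. The median depths of these classes were 9397, 8420 and 3029 UMIs. At most 16 Cd8b1 UMIs were counted in 1 cell of run 1. For Cd8a the thinned share in the Il2ra- Ptcra+ cycling cells of run 1 was 6.92% (5.46% to 8.62%), against 26.6% with all UMIs. Among thinned cycling cells of run 1, a Cd8a UMI was present in 13.6% of the 529 cells with a Cd8b1 UMI (lower bound 10.8%) and in 3.79% of the 3434 cells without one. These shares pool the cycling classes of run 1, so differences between those classes enter them.

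**Figure D3:**
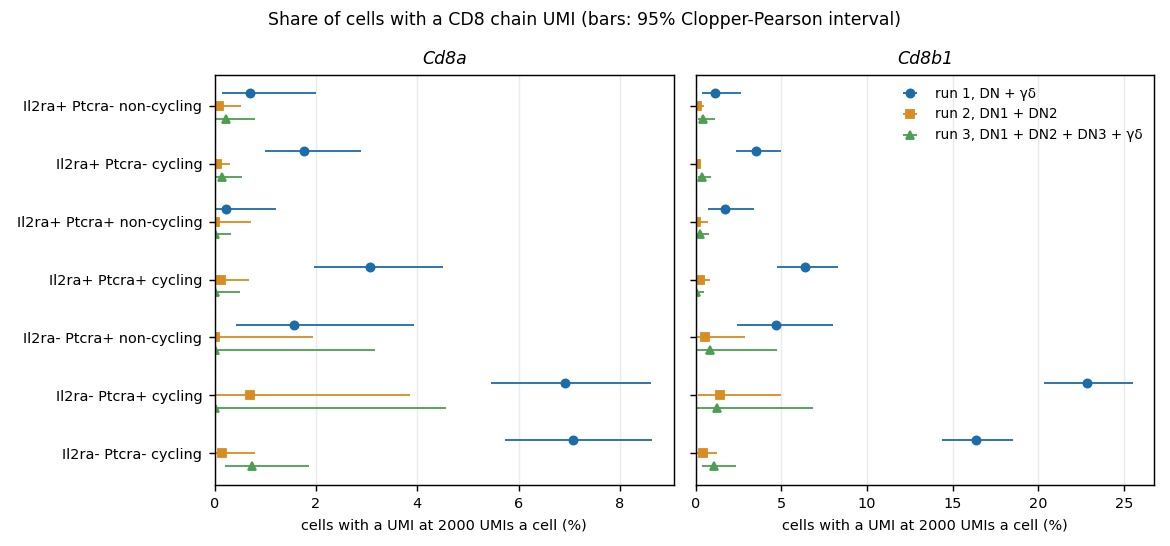
Share of cells with a Cd8a (left) or Cd8b1 (right) UMI after thinning each cell to 2000 UMIs (x axis, percent, linear from 0) in 7 classes (y axis) of run 1 (blue circles), run 2 (orange squares) and run 3 (green triangles), with Clopper-Pearson 95% intervals. In the Il2ra- Ptcra+ cycling class the Cd8b1 share was 22.8% in run 1, 1.41% in run 2 and 1.27% in run 3.

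In the comparison of cycling with non-cycling Il2ra+ Ptcra+ cells, Cd8b1 rose and Cd27, Ctla4 and Cd2 fell, the latter 3 of the 5 genes, where 48.5% of all genes tested were called in either direction, 22.5% higher and 26.0% lower. Cd8a was at 22.9 against 3.04 CPM in run 1. Runs 2 and 3 had 0.5 and 1.31 CPM in cycling cells, near the counting limit. Cd8b1 rose by 2.28 ± 0.28 (log2 fold change ± SE, adjusted p = 1.6e-05), from 11.0 to 64.9 CPM in run 1, 0.838 to 1.87 CPM in run 2 and 1.21 to 3.14 CPM in run 3. Without run 1 the difference was 1.49 (adjusted p = 0.0076). That fit rests on levels of a few CPM, so it is not read as a rise in runs 2 and 3.

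In the same comparison among Il2ra+ Ptcra- cells, 46.5% of all genes were called in either direction, 24.4% higher and 22.1% lower. Cd8b1 rose by 1.24 ± 0.42 (adjusted p = 0.023), and this rested on run 1, which went from 7.07 to 40.7 CPM. Without run 1 the difference was -0.37 (adjusted p = 0.53), and without run 3 it was 2.23. Under DESeq2 it was 0.47 (adjusted p = 0.78), and the call was kept in 6 of 9 alternatives with a replicate block. Runs 2 and 3 had 0.233 and 1.74 CPM in cycling cells against 0.554 and 2.31 CPM. Cd8a was not tested there and was at 8.94 against 2.83 CPM in run 1.

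Cycling cells that lacked Il2ra UMIs were compared with those that had them, within Ptcra+ cells. This was the comparison with the fewest calls over all genes, 1.95% in either direction, 0.511% higher and 1.44% lower in the Il2ra- class, and Cd28, Cd2, Cd6 and Ctla4, 4 of the 5 genes, were called, as was Cd8b1. Cd8b1 rose by 1.64 ± 0.19 (3.11-fold, adjusted p = 8.4e-05), from 64.9 to 161 CPM in run 1, from 1.87 to 16.6 CPM in run 2 and from 3.14 to 17.1 CPM in run 3. Cd8a was at 46.8 against 22.9 CPM in run 1, 4.16 against 0.5 CPM in run 2 and 3.71 against 1.31 CPM in run 3. Both were higher in the Il2ra- class in 3 of 3 runs. The Cd8a levels of runs 2 and 3 were near the counting limit, so they are not read as a rise there. Without run 1, Cd8b1 differed by 2.76 (adjusted p = 8.9e-09), and under DESeq2 by 2.28. The fit without run 1 rests on an Il2ra+ class at 1.87 and 3.14 CPM, levels of a few CPM. Its size and p-value are therefore not read as a measure of the rise in runs 2 and 3.

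Cd28 also rose in that comparison, by 0.69 ± 0.11 (1.61-fold, adjusted p = 0.0015). It was at 94.0 against 66.2 CPM in run 1, 54.0 against 32.1 CPM in run 2 and 89.9 against 51.7 CPM in run 3. Cd2 rose by 0.90 ± 0.20 (adjusted p = 0.021), with 27.0 against 17.7 CPM, 9.98 against 4.87 CPM and 14.9 against 5.15 CPM in runs 1, 2 and 3. Cd6 rose by 0.86 ± 0.17 (adjusted p = 0.011), with 34.3 against 22.9 CPM, 16.6 against 9.49 CPM and 24.5 against 9.25 CPM. Ctla4 fell by 0.88 ± 0.16 on the log2 scale (adjusted p = 0.0054), with 9.93 against 19.0 CPM, 22.5 against 34.2 CPM and 12.6 against 30.5 CPM. The intervals of the Il2ra- classes of runs 2 and 3 were wide, since they had 142 and 80 cells. The calls of Cd2, Cd6 and Ctla4 were kept in 8, 7 and 9 of 11 alternatives with a replicate block. Those of Cd2 and Cd6 were lost under DESeq2, without run 3 (0.74, adjusted p = 0.088, and 0.69, adjusted p = 0.056) and with gates set on thinned cells (0.80, adjusted p = 0.33, and 0.16, adjusted p = 0.84), and that of Ctla4 with thinned gates (-0.48, adjusted p = 0.18) and under DESeq2 (-0.86, adjusted p = 0.13).

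Cd27 did not pass in that comparison (0.02 ± 0.09, adjusted p = 0.97), and it fell in cycling cells by 0.97 ± 0.09 among Il2ra+ Ptcra+ cells (adjusted p = 1.0e-06) and by 0.69 ± 0.08 among Il2ra+ Ptcra- cells (adjusted p = 2.8e-06). It kept both calls in all 11 alternatives other than the fit with no replicate block. In Il2ra+ Ptcra+ cells it was at 462 CPM in non-cycling and 192 CPM in cycling cells of run 1, 308 and 149 CPM in run 2, and 201 and 105 CPM in run 3. In Il2ra+ Ptcra- cells the values were 396 and 201 CPM, 278 and 169 CPM, and 192 and 113 CPM. The cycling and non-cycling levels did not overlap within any run, whereas the cycling cells of run 1 and the non-cycling cells of run 3 were at about the same level.

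Across the whole of each run, the Cd27 share of cells with a UMI at 2000 UMIs a cell was 59.9% of non-cycling and 32.1% of cycling cells in run 1, 40.7% and 28.5% in run 2, and 34.8% and 22.8% in run 3. With all UMIs the shares were 74.9% and 72.6%, 57.8% and 71.7%, and 70.9% and 76.1%, so that without thinning the order of runs 2 and 3 was the opposite. Cycling cells held more UMIs per cell, and CPM gave the order of the thinned shares. Among Il2ra+ Ptcra+ cells the medians were 8420 UMIs in cycling and 3154.5 UMIs in non-cycling cells of run 1. They were 8929.5 and 4263.5 UMIs in run 2, and 15645 and 7408 UMIs in run 3. A fall with cycling, for every gene and list here, is thus a fall in the share of all UMIs. The number of UMIs of a gene per cell was not compared.

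Cd27 was highest in Trdc-high non-cycling cells that lacked Il2ra and Ptcra UMIs. It stood there at 782 CPM in run 1, 505 CPM in run 2 and 439 CPM in run 3, against 470.4, 256 and 224 CPM in the Trdc-low Trac- class. The rise of 0.87 ± 0.09 (1.83-fold, adjusted p = 0.0031) was seen in 3 of 3 runs, and the interval of the Trdc-high class stood clear of every other class of at least 50 cells in each run. Without run 2 the difference was 0.83 (adjusted p = 0.068). The Trdc-high cells of run 2 came from a sort that left out TCRγδ+ cells. Of all genes tested, 5.54% were called, 2.81% higher in Trdc-high cells and 2.73% lower, and Cd27 and Cd28, 2 of the 5 genes, were called.

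Cd28 rose in Trdc-high cells by 0.65 ± 0.15 (adjusted p = 0.048), with 141 against 64.8 CPM in run 1, 112 against 69.4 CPM in run 2 and 154 against 112 CPM in run 3. The call was close to the threshold and was lost in 6 of 13 alternatives with a replicate block, among them without run 2 (0.70, adjusted p = 0.33) and with a gate of 1 Trdc UMI (0.27, adjusted p = 0.50). Cd6 (0.93 ± 0.25, adjusted p = 0.078), Cd2 (0.78 ± 0.47, adjusted p = 0.40), Ctla4 (-1.22 ± 0.36, adjusted p = 0.11) and Cd8b1 (0.32 ± 0.60, adjusted p = 0.83) did not pass. For Cd2 the runs were far apart, at 179.9 against 11.6 CPM in run 1, 86.7 against 58.3 CPM in run 2 and 125 against 123 CPM in run 3. The Trdc-high class was not gated on Trac, unlike the reference class. Trac was at 89.1, 139 and 75.1 CPM in it in runs 1, 2 and 3, against 0 CPM by the gate of the reference class. The part of Trac+ cells in the rise of Cd28 and in the other differences was not tested. The reference class of run 2 also held the erythroid globin transcripts Hbb-bs at 997 CPM and Hba-a1 at 722 CPM, against at most 6.65 and 2.49 CPM in the other classes of that run, and their part in these differences was not tested.

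Non-cycling cells with a Trac UMI and no Il2ra, Ptcra or high Trdc had the highest Cd28, Cd2 and Cd6 of any class in runs 2 and 3. Against the Trac- class, Cd28, Cd2 and Cd6 rose and Ctla4 fell, 4 of the 5 genes, where 17.7% of all genes were called, 7.45% higher and 10.3% lower. Cd28 rose by 1.73 ± 0.22 (3.32-fold, adjusted p = 1.1e-05), from 69.4 to 274 CPM in run 2 and from 112 to 205 CPM in run 3, and by 2.32 without run 3. Cd2 rose by 1.89 ± 0.33 (adjusted p = 0.00029), from 58.3 to 238 CPM and from 123 to 207 CPM, by 2.94 without run 3, by 2.47 under DESeq2 and by 1.01 with a gate of 1 Trdc UMI. Cd6 rose by 1.74 ± 0.18 (adjusted p = 1.1e-06), from 28.3 to 109 CPM and from 57.8 to 144 CPM. The 22 Trac+ cells of run 1 were in the same direction, with Cd28 at 444 against 64.8 CPM. Cd28, Cd2 and Cd6 kept their calls without run 1.

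Ctla4 fell in Trac+ cells by 1.58 ± 0.41 on the log2 scale (adjusted p = 0.0097), with 1.8 against 12.0 CPM in run 2 and 5.38 against 9.69 CPM in run 3. In run 1 the 22 Trac+ cells held 0 Ctla4 UMIs, against 48.2 CPM. The call was lost in 3 of 13 alternatives with a replicate block, which were DESeq2 (-1.92, adjusted p = 0.064), a gate of 1 Trdc UMI (-0.76, adjusted p = 0.48) and leaving out run 2 (-1.10, adjusted p = 0.56), and without run 3 the difference was -2.72 (adjusted p = 0.0008). Cd27 (-0.16 ± 0.16, adjusted p = 0.58) and Cd8b1 (0.11 ± 0.48, adjusted p = 0.94) did not pass.

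The Trac+ class also held transcripts of the natural killer and innate lymphoid markers Klrb1c, Ncr1, Klrd1 and Eomes, summed at 1114 CPM in run 2 and 486 CPM in run 3, against 168 and 252 CPM in the Trac- class, and at 0 CPM against 6.65 CPM in run 1. Of the 4, Klrb1c and Klrd1 were higher in the Trac+ class and Ncr1 and Eomes lower in both runs. Klrb1c, which encodes NK1.1, a protein on which the sort removed cells, was at 327 against 42.9 CPM in run 2 and 204 against 77.9 CPM in run 3. Ncr1 was at 1.8 against 6.0 CPM and 4.78 against 32.5 CPM, and Eomes at 1.24 against 3.0 CPM and 4.78 against 24.2 CPM. With every cell that held a UMI of the 4 markers left out of both classes, a choice made after seeing the data, Cd28 differed by 1.62 (adjusted p = 1.2e-05), Cd2 by 1.60 (adjusted p = 0.001), Cd6 by 1.65 (adjusted p = 5.7e-06) and Ctla4 by -1.40 (adjusted p = 0.038). The Trac- class of run 2 is the one with the globin transcripts given above, and their part in this comparison was not tested.

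In Il2ra+ Ptcra- non-cycling cells, set against the Trac- Trdc-low cells without Il2ra, Cd2 and Cd28 fell and Ctla4 rose, the last 2 close to the threshold. Of all genes tested 3.78% were called, 0.865% higher and 2.91% lower, and these were 3 of the 5 genes. Cd2 fell by 1.48 ± 0.20 on the log2 scale (adjusted p = 0.003), with 24.01 against 58.3 CPM in run 2 and 36.9 against 123 CPM in run 3, while run 1 had 14.8 against 11.6 CPM. Cd28 fell by 0.52 ± 0.13 on the log2 scale (adjusted p = 0.048), with 33.2 against 64.8 CPM, 61.9 against 69.4 CPM and 75.5 against 112 CPM in runs 1, 2 and 3. Ctla4 rose by 0.82 ± 0.20 (adjusted p = 0.048), with 58.7 against 48.2 CPM, 22.7 against 12.0 CPM and 23.9 against 9.69 CPM. Cd2 kept its call in all 11 alternatives with a replicate block, with a value of -2.99 with gates of at least 2 UMIs, Cd28 in 6 and Ctla4 in 4. The calls of Cd28 were lost without run 1 (-0.40, adjusted p = 0.098) or run 3 (-0.41, adjusted p = 0.51), and those of Ctla4 without run 2 (0.81, adjusted p = 0.12) or run 3 (0.57, adjusted p = 0.48). Cd6 (-0.56 ± 0.17, adjusted p = 0.11), Cd8b1 (-1.35 ± 0.49, adjusted p = 0.18) and Cd27 (-0.16 ± 0.09, adjusted p = 0.45) did not pass. The Il2ra+ class was not gated on Trdc or Trac, unlike the reference class. Trdc was at 802 against 347 CPM, 676 against 238 CPM and 446 against 248 CPM in runs 1, 2 and 3. Trac was at 18.4, 139 and 72.6 CPM, against 0 CPM by the gate of the reference class. The part of these gates in the differences was not tested. The reference class of run 2 held the globin transcripts given above. The natural killer and innate lymphoid markers were at a summed 105 against 168 CPM in run 2, 62.8 against 252 CPM in run 3 and 10.6 against 6.65 CPM in run 1. The reference class of run 3 also held Cd79a at 79.3 CPM, against 21.3 CPM, and Siglech, a marker of plasmacytoid dendritic cells, at 19.0 CPM. The part of these cells in the differences was not tested.

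With Ptcra UMIs present in Il2ra+ non-cycling cells, Ctla4 rose and Cd6 and Cd2 fell, 3 of the 5 genes, where 16.4% of all genes were called, 6.96% higher and 9.45% lower. Cd6 fell by 1.10 ± 0.15 on the log2 scale (adjusted p = 6.1e-05) and was lower in 3 of 3 runs, at 9.13 against 26.9 CPM, 12.6 against 23.6 CPM and 15.3 against 32.7 CPM. Ctla4 rose by 1.05 ± 0.19 (2.08-fold, adjusted p = 0.0011), with 50.3 against 22.7 CPM in run 2 and 68.0 against 23.9 CPM in run 3. Run 1 went the other way for Ctla4, at 51.1 against 58.7 CPM. Without run 2 its difference was 0.96 (adjusted p = 0.15), and without run 3 it was 0.58 (adjusted p = 0.007).

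Cd2 fell in that comparison by 1.27 ± 0.28 on the log2 scale (adjusted p = 0.0047), with 15.9 against 24.01 CPM in run 2 and 8.58 against 36.9 CPM in run 3, and 19.5 against 14.8 CPM in run 1. Without run 3 the difference was -0.28 (adjusted p = 0.63), without run 2 it was -1.44 (adjusted p = 0.12), and with gates of at least 2 UMIs it was -0.16 (adjusted p = 0.82). The call of Cd2 was kept in 6 of 11 alternatives with a replicate block. Cd27 (0.15 ± 0.06, adjusted p = 0.12) and Cd28 (-0.05 ± 0.11, adjusted p = 0.85) did not pass. The 4 natural killer and innate lymphoid markers were lower in the Ptcra+ class of runs 2 and 3 too, at a summed 50.3 against 105 CPM and 14.2 against 62.8 CPM, and higher in that of run 1, at 17.0 against 10.6 CPM. Trac was at 57.8 against 139 CPM, 19.1 against 72.6 CPM and 10.3 against 18.4 CPM in runs 2, 3 and 1. The part of such cells in the falls of Cd2 and Cd6 was not tested.

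Ctla4 was highest in an Il2ra+ non-cycling class in each run, Ptcra- in run 1 and Ptcra+ in runs 2 and 3. The intervals of the first 2 classes overlapped in run 1 (58.7 and 51.1 CPM) and in run 3 (68.0 CPM, and 47.0 CPM in Il2ra- Ptcra+ non-cycling cells), and not in run 2. It fell in cycling cells by 0.93 ± 0.14 on the log2 scale among Il2ra+ Ptcra+ cells (adjusted p = 7.2e-05), from 51.1 to 19.0 CPM, 50.3 to 34.2 CPM and 68.0 to 30.5 CPM in runs 1, 2 and 3. Among Il2ra+ Ptcra- cells it fell by 0.73 ± 0.16 on the log2 scale (adjusted p = 0.0011), from 58.7 to 18.4 CPM, 22.7 to 15.6 CPM and 23.9 to 15.1 CPM, and by 0.49 without run 1 (adjusted p = 0.0006). Cycling cells were below non-cycling cells in every run in both comparisons. In the class with the highest level, 11.1% of the cells of run 1, 8.11% of run 2 and 13.1% of run 3 had a Ctla4 UMI at 2000 UMIs, and 15.4%, 17.8% and 36.04% with all UMIs.

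In runs 2 and 3, Cd2 and Cd6 had their lowest levels in cycling Il2ra+ cells. Among Ptcra- cells, Cd2 fell with cycling by 1.74 ± 0.20 on the log2 scale (adjusted p = 1.1e-06), from 14.8 to 10.4 CPM, 24.01 to 5.66 CPM and 36.9 to 8.28 CPM in runs 1, 2 and 3. Cd6 fell there by 0.77 ± 0.17 on the log2 scale (adjusted p = 0.001), with 23.6 to 10.6 CPM in run 2 and 32.7 to 14.9 CPM in run 3, and with 26.9 and 27.5 CPM in run 1. With gates of at least 2 UMIs the fall of Cd2 was 0.87. With Cd27 and Ctla4 this made 4 of the 5 genes that passed the filter everywhere, where 46.5% of all genes were called. In the same classes the summed natural killer and innate lymphoid markers were at 0.497 CPM in cycling against 10.6 CPM in non-cycling cells of run 1, 19.9 against 105 CPM in run 2 and 7.95 against 62.8 CPM in run 3. Trac was at 13.2 against 18.4 CPM, 26.1 against 139 CPM and 8.18 against 72.6 CPM. Their part in the falls of Cd2 and Cd6 was not tested.

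Among Ptcra+ cells, the fall of Cd2 with cycling (-0.66 ± 0.25, adjusted p = 0.039) changed with the settings. It was at 17.7 against 19.5 CPM, 4.87 against 15.9 CPM and 5.15 against 8.58 CPM in runs 1, 2 and 3. Without run 2 it was -0.28 (adjusted p = 0.35), without the cells of highest doublet score -0.07 (adjusted p = 0.86), and with cycling called by Mki67 or Top2a UMIs 0.02 (adjusted p = 0.94). Cd6 did not pass there (-0.04 ± 0.27, adjusted p = 0.92), with 22.9 against 9.13 CPM in run 1, 9.49 against 12.6 CPM in run 2 and 9.25 against 15.3 CPM in run 3.

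Cd28 differed in direction between runs with cycling, and neither comparison passed (-0.17 ± 0.21, adjusted p = 0.52, among Ptcra+ cells and -0.38 ± 0.20, adjusted p = 0.13, among Ptcra- cells). In run 1 it was higher in cycling cells, at 66.2 against 40.8 CPM and 59.1 against 33.2 CPM. In run 2 it was lower, at 32.1 against 67.9 CPM and 26.6 against 61.9 CPM, and in run 3 it was at 51.7 against 63.4 CPM and 53.1 against 75.5 CPM.

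**Figure D4:**
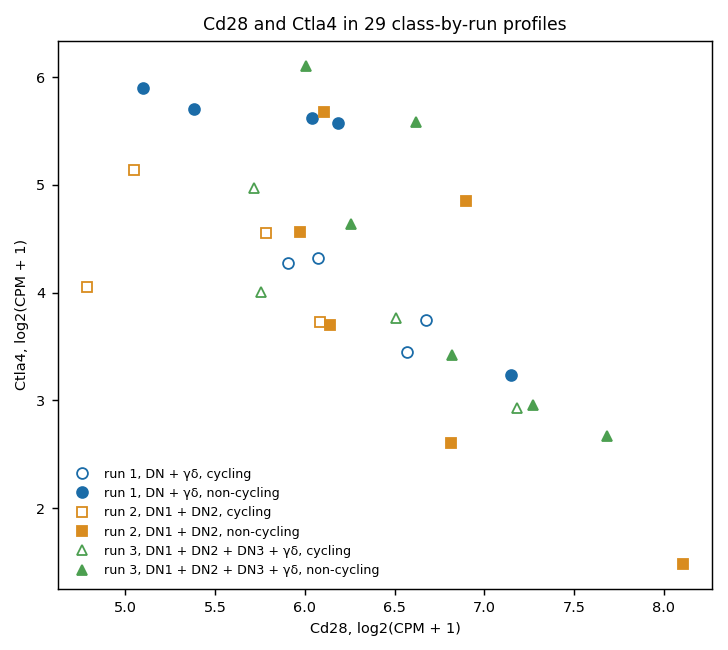
Cd28 (x axis) and Ctla4 (y axis), both as log2(CPM + 1), in the 29 combinations of class and run with at least 50 cells, with filled symbols for non-cycling and open symbols for cycling classes. The point at the lower right is the Trac+ class of run 2, with Cd28 at 274 CPM and Ctla4 at 1.8 CPM.

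Over the 29 profiles of a class in a run, the levels of Cd28, Cd2 and Cd6 went together and those of Ctla4 went against them. Pearson's r of log2(CPM + 1) was 0.88 for Cd28 with Cd2, 0.86 for Cd28 with Cd6 and 0.90 for Cd2 with Cd6, and -0.70, -0.70 and -0.77 for Ctla4 with Cd28, Cd2 and Cd6. The profiles share runs, animals and depth, so these values are descriptions. With each gene centred within its run, a choice made after seeing the data, they were 0.88, 0.86 and 0.91, and -0.71, -0.70 and -0.81. The shares of cells that follow pool the classes of a run, so differences between classes enter them. The Trac+ class, for one, held 2263 of the non-cycling cells of run 2. At 2000 UMIs, a Cd28 UMI was present in 39.9% of the 1067 non-cycling cells of run 2 with a Cd2 UMI and in 18.7% of the 4210 without one, and in 31.7% of 715 and 16.7% of 3687 such cells of run 3. A Ctla4 UMI was present in 0.988% of the non-cycling cells of run 2 with a Cd28 UMI and 2.88% of those without, and in 3.56% and 5.62% of those of run 3. The intervals of the non-cycling cells of run 3 overlapped, at 2.42% to 5.05% and 4.88% to 6.43%. In cycling cells of runs 2 and 3 the order was the other way and the intervals overlapped, with 5.04% and 3.82% in run 2 and 3.7% and 3.04% in run 3. In run 1 the order was the same in both, with 3.4% and 9.28% in non-cycling cells and 2.28% and 3.21% in cycling cells. The intervals of the cycling cells of run 1 overlapped.

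The gene most like Cd8a was Cd8b1 (r = 0.93), and D8Ertd738e and Slc25a4 came next for both chains (0.85 to 0.87), among 9768 genes with at least 10 CPM in a profile. Both chains were highest in run 1, and with each gene centred within its run their r was 0.81. For Cd28 the closest were Ly9, Cd2 and Cd6 (0.88, 0.88 and 0.86), for Cd6 they were Zap70, Ly9 and Cd2 (0.91, 0.91 and 0.90), and for Cd2 they were Itgb2, AB124611 and Zap70 (0.96, 0.92 and 0.92). Zap70 encodes the kinase that binds the phosphorylated T cell receptor complex. Cd27 was most like Uqcrh, Cox7a2l and Galns (0.95, 0.95 and 0.93), and Uqcrh and Cox7a2l encode proteins of the respiratory chain. Ctla4 was most like Pam16, Carkd and Epcam (0.95, 0.94 and 0.93). Cd4, with few counts, reached 0.64 with Actr8, 0.59 with Satb1 and 0.59 with Fbxl18. Centring within runs kept 3 of the 3 genes for Cd2, 2 for Cd8a, Cd8b1, Cd28 and Cd6, 1 for Cd27 and Ctla4, and 0 for Cd4.

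The genes around the 8 were counted over a list of 53 further receptors, ligands, signalling partners and factors known for the coreceptor loci. In cycling cells, 21 of the 41 tested fell and 1 rose among Il2ra+ Ptcra+ cells, and 25 of 42 fell and 1 rose among Il2ra+ Ptcra- cells. Of all genes 26.0% fell and 22.5% rose in the first comparison, and 22.1% fell and 24.4% rose in the second. The list had medians of -0.57 and -0.37 (log2) against -0.07 and -0.02 over all genes. The 1 gene that rose was Cd2bp2, which encodes a protein that binds the cytoplasmic tail of CD2, by 0.49 ± 0.12 (adjusted p = 0.0051) and 0.44 ± 0.11 (adjusted p = 0.0031). The largest falls were Tnfrsf25, a TNF family receptor, at -1.68 ± 0.44 (adjusted p = 0.0058) and at most 3.74 CPM in any of these classes, and Icos, a receptor related to CD28, at -2.94 ± 0.17 (adjusted p = 2.3e-10). Icos was at 48.0 against 7.35 CPM in run 2, 125 against 11.3 CPM in run 3 and 5.65 against 2.48 CPM in run 1.

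In Trac+ cells, 15 of the 44 listed genes tested rose and 8 fell, where 7.45% of all genes rose and 10.3% fell, with a list median of 0.29 against -0.02 over all genes, and 11 of the 18 receptors tested were among those that rose. Cd40lg, the ligand of CD40, rose by 2.52 ± 0.25 (adjusted p = 3.9e-07), at 83.4 against 11.1 CPM in run 2 and 51.7 against 14.2 CPM in run 3. Myb, a transcription factor of immature thymocytes, fell by 2.64 ± 0.23 on the log2 scale (adjusted p = 9.8e-08), at 25.3 against 277 CPM and 42.7 against 233 CPM.

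In Trdc-high cells, 12 of the 42 tested rose and 0 fell, where 2.81% of all genes rose and 2.73% fell, with a median of 0.34 against 0.0025 over all genes. Pdcd1, which encodes the inhibitory receptor PD-1, rose by 1.99 ± 0.24 (adjusted p = 0.0059) and was at 245 against 38.2 CPM, 131 against 24.4 CPM and 109.8 against 42.9 CPM in runs 1, 2 and 3.

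With Il2ra present, 9 of 40 listed genes fell and 2 rose, where 2.91% of all genes fell and 0.865% rose. They were led by Tnfrsf9 (-1.94 ± 0.34, adjusted p = 0.0097), which encodes the costimulatory receptor 4-1BB, and Patz1 (0.72 ± 0.17, adjusted p = 0.041). Tnfrsf9 was at most 9.43 CPM in any of these classes. With Ptcra present, 15 of 41 fell and 6 rose, where 9.45% of all genes fell and 6.96% rose. They were led by Icos (-2.40 ± 0.24, adjusted p = 3.9e-06) and the transcription factor gene Lef1 (1.06 ± 0.12, adjusted p = 1.7e-05). In Ptcra+ cycling cells without Il2ra UMIs, set against those with them, 5 of 40 fell and 4 rose, where 1.44% of all genes fell and 0.511% rose. They were led by Alcam (-1.52 ± 0.35, adjusted p = 0.027), which encodes the ligand of CD6, and Cd7 (1.27 ± 0.25, adjusted p = 0.009). Alcam was low, at 0.946 against 2.98 CPM, 4.16 against 7.37 CPM and 2.97 against 12.7 CPM in runs 1, 2 and 3. The medians of the list in these 3 comparisons were -0.15, -0.13 and -0.03, against -0.01, 0.02 and -0.01 over all genes.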

How the data were processed

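Each run was a 10x Genomics 3' gene expression library of a pooled thymus sort, and the deposited matrices hold raw UMI counts per gene and cell, made by the authors with Cell Ranger on mm10, in versions that the study's methods name for the series but do not assign to runs. The submitters' notes also name R 3.6.3 and Seurat 2.3. The genes, gates and lists were chosen with earlier results of these data known. Counts over the 27734 genes shared by gene ID in the 3 runs were summed per run and class and tested with edgeR 4.0.16 (quasi-likelihood test, TMM, filterByExpr, run as a block, 2 residual degrees of freedom, at least 20 cells per class, Benjamini-Hochberg adjustment over all genes tested, threshold 0.05). Genes that set the gates, phases and B cell gate were left out of the tests, and some marker genes are not reported here. SEs are the log2 fold change divided by the root of the F statistic. The fit was tested on simulated counts with 200 changed genes. As runs are separate sorts of pooled thymi, p-values rest on the spread between these 3 runs. For each gene, edgeR moderated that spread toward the spread of all genes tested, with median prior degrees of freedom of 5.59 to 17.2 by comparison. A small p-value is thus not a measure of the spread of that gene alone. Phases were scored with scanpy 1.11.5 (43 of 43 S and 52 of 54 G2/M genes matched). Scrublet marked 0%, 4.79% and 2.78% of the cells of runs 1, 2 and 3, so it had not worked in run 1, and the 8% of cells with the highest score were left out only as an alternative. The text gives the 5 genes that passed the filter throughout in every comparison, and Cd8b1 in every comparison that tested it. Cd8a is given in the comparisons that include a cycling class, and Cd4 by its levels only. The 3 genes most like each of the 8 are given, and the largest rise and fall of the wider list past the threshold. R 4.3.3 and DESeq2 1.42.0 served the alternatives.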

Additional observations from a re-analysis of the deposited data

Results flagged for a closer look

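Cd28 moved in opposite directions between runs with cycling, and the difference between runs was not tested, since each sort was made once. Among Il2ra+ Ptcra+ cells the log2 ratio of cycling to non-cycling levels was 0.70 in run 1 and -1.08 in run 2. Among Il2ra+ Ptcra- cells it was 0.83 in run 1, -1.22 in run 2 and -0.51 in run 3. Cd6 among Il2ra+ Ptcra+ cells was at 1.33 in run 1 and -0.73 in run 3, and this difference was not tested either. Each of these ratios was at least 0.5 in size and past its own counting error.

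Cells outside the limits on genes and mitochondrial counts entered no comparison. The 552 cells of run 3 with over 5000 genes had Cd8a at 2.59 CPM and Cd8b1 at 8.20 CPM, against 1.31 and 3.54 CPM in the kept cells. The 762 cells of run 3 over 7% mitochondrial counts had Cd28 at 213 CPM and Cd6 at 70.2 CPM, against 89.2 and 40.2 CPM.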

How the results depend on the processing

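Counts of called genes moved by over 1.5 times in these cases. The order throughout is Il2ra, Ptcra, cycling among Ptcra+, cycling among Ptcra-, Il2ra loss, Trdc and Trac comparison. Il2ra loss is a name only, for Ptcra+ cycling cells without Il2ra UMIs set against those with them. edgeR called 358, 1622, 5107, 4933, 202, 515 and 1663 genes, and DESeq2 called 50, 533, 3357, 3238, 49, 260 and 669. With no replicate block (no term for the run) the counts were 0, 0, 378, 251, 0, 0 and 0. At an unadjusted p under 0.05 the fit with no block gave 56, 443, 2080, 1641, 71, 371 and 749 genes. With no filter on low counts, 944, 344 and 1392 genes were called in the Il2ra, Il2ra loss and Trdc comparisons. With gates set on cells thinned to 2000 UMIs, 979, 2071, 86, 1087 and 3132 were called in the Ptcra, cycling Ptcra+, Il2ra loss, Trdc and Trac comparisons. With cycling called by Mki67 or Top2a UMIs, 88 and 747 were called in the Il2ra and Trac comparisons. Leaving out 1 run at a time gave 98 to 634, 643 to 2471, 90 to 616, 38 to 1205 and 421 to 2232 in the Il2ra, Ptcra, Il2ra loss, Trdc and Trac comparisons. The cause of these shifts was not tested.

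Directions changed mostly for genes with estimates near 0. Cd28 in the Ptcra comparison was at 0.022 under DESeq2, 0.15 with gates of 2 UMIs, 0.019 with thinned gates and 0.011 with no block, and -0.10 to 0.17 with 1 run left out. With cycling among Ptcra+ cells, Cd28 was at 0.0058 without the cells of highest doublet score and -0.46 to 0.25 with 1 run left out, Cd2 was at 0.023 with Mki67 or Top2a, and Cd6 was at 0.12 under DESeq2, 0.0018 with no filter, 0.44 with thinned gates, 0.24 without high doublet scores, 0.10 with Mki67 or Top2a, 0.27 with no block, and -0.47 to 0.54 with 1 run left out. With cycling among Ptcra- cells, 1 run left out gave -0.37 to 2.23 for Cd8b1 and -0.69 to 0.089 for Cd28. For Cd27 in the Il2ra loss comparison, no filter gave -0.010, gates of 2 UMIs -0.11, thinned gates -0.28, Mki67 or Top2a -0.089, and 1 run left out -0.038 to 0.16. For Cd8b1 in the Trdc comparison, Mki67 or Top2a gave -0.14, a gate of 1 Trdc UMI -0.013, and 1 run left out -0.90 to 0.83. In the Trac comparison, Cd8b1 was at -0.11 under DESeq2, -0.82 with no block and -0.47 with a gate of 1 Trdc UMI, and Cd27 was at 0.034 with thinned gates and 0.086 with a gate of 1 Trdc UMI. Without the block, all 28 calls of the 8 genes, those of Cd8a and Cd8b1 included, were lost, and 3 values changed direction. Of the other alternatives that kept all runs, 286 values kept direction and side of the threshold, 30 lost the call, 19 gained it and 20 changed direction. Levels over all kept cells were within their counting interval in 24 of 24 cases without the cells of highest doublet score, whereas 23 of 24 shares of cells with a UMI rose beyond it when all UMIs were used. With at most 47 Cd4 UMIs in a run, Cd4 was below the filter on low counts, so its differences between classes were not tested. By the Il2ra gate alone, Cd4 was at 0.546 CPM in Il2ra+ and 1.66 CPM in Il2ra- cells of run 1. Runs 2 and 3 had 0.121 against 0.365 CPM and 0.16 against 1.03 CPM. Levels this low are not read as expression by a class.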
